A study of Homo sapiens with 12 samples.

Results

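The 40 genes described here encode proteins that copy DNA or serve S phase, the part of the cell cycle in which the genome is replicated. They were listed by gene symbol and function, and all 40 were found among the 23368 distinct symbols of the deposited count table. RNA was sequenced from established breast cancer cell lines after 3 days in 3D culture in synthetic hydrogels, to ask how the composition of the matrix around the cells bears on gene expression. MDA-MB-231 cells, of the ER− basal subtype, and T47D cells, of the ER+ luminal A subtype, were each encapsulated as single cells at 5000 cells per µL. The gels were PEG matrices with a crosslinking peptide that cells can degrade, and they carried either the collagen mimic GFOGER or the laminin mimic IKVAV, with no further agent in any group. The GFOGER group of MDA-MB-231 cells held 3 libraries and the IKVAV group 2, and both T47D groups held 3. The third IKVAV replicate of MDA-MB-231 cells was not analysed here. Each replicate pooled 3 gels, which were digested with collagenase for 20 minutes before RNA was extracted, and each subtype is represented by 1 cell line. The sources used here do not say that replicates came from separate cultures, so the p-values measure the spread between these samples, which may be technical.

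Between 14337035 and 18449108 counts fell on genes in each library, and the 40 genes took 0.264% to 0.565% of them. Apart from CDCA7 in T47D cells, each member had between 150 and 10586 counts in every library. Markers of the labelled cell lines were checked first. The MDA-MB-231 markers VIM, AXL, CAV1, MSN and CD44 summed to 4830 to 7550 cpm (counts scaled to a common library total, normalized by TMM) in MDA-MB-231 libraries and 118 to 134 cpm in T47D libraries. The T47D markers ESR1, CDH1, GATA3, KRT19 and EPCAM summed to 3920 to 4310 cpm in T47D libraries and 194 to 233 cpm in MDA-MB-231 libraries, so every library matched its labelled cell line, while the peptide of a library cannot be checked by these markers.

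DNA replication begins when the MCM helicase is loaded at origins in G1 and is switched on by CDC45 and the GINS complex at the start of S phase. Primase and polymerase alpha then lay down primers, the clamp PCNA holds the following polymerases on the template, and ribonucleotide reductase and thymidylate synthase supply the building blocks. Many genes of this machinery are transcribed together at the G1 to S transition by E2F factors, and their mRNA is widely read as a sign of cells entering or passing through S phase. In bulk RNA such as this, fewer cells in S phase and less of these mRNAs per cell cannot be told apart.

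E2F factors bind variants of a short sequence near the transcription start, and the promoters of the members were searched for it. RefSeq promoters from 250 bases before to 50 bases after the start were known for 31 of the 40 members (RefSeq, GRCh38). The letters TTTCCCGC, TTTCGCGC, TTTGCCGC and TTTGGCGC were sought on both strands, and matches that overlapped were merged. At least 1 match was present in 15 of the 31 members (48.4%) and in 3.33% of 27305 promoters in all. It was present in 21 of 79 promoters of further replication genes (26.6%) and in 3 of 44 promoters of G2/M genes (6.82%). Only HELLS and MCM6 had 2 separate matches. The stretches below are the last 120 bases before both the RefSeq start and the gene as placed in the deposited table. They are shown for the 5 members with a match wholly inside this stretch, and capitals mark the match. In DTL, GINS2, TYMS, UBR7, CDC6, CLSPN, EXO1 and MCM2 the match reached past one of these starts, and in CASP8AP2 and POLA1 it lay further upstream. Each was found once in GRCh37, at chr10:96305425-96305544 for HELLS, chr2:174219441-174219560 for CDCA7 and chr19:4909390-4909509 for UHRF1 on the plus strand, and at chr2:136634014-136634133 for MCM6 and chr20:5107269-5107388 for PCNA on the minus strand.
HELLS: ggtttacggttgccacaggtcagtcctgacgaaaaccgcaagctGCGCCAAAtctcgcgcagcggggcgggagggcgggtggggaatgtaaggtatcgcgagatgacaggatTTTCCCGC
MCM6: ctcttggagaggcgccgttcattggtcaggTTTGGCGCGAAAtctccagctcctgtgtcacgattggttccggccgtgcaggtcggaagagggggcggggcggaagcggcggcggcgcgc
CDCA7: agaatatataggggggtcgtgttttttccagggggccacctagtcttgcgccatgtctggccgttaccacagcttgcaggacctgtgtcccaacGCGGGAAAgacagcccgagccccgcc
PCNA: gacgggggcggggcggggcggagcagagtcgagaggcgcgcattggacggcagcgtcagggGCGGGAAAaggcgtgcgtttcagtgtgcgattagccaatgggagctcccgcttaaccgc
UHRF1: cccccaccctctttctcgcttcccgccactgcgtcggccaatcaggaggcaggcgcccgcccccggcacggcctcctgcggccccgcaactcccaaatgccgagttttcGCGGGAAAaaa

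HELLS is a chromatin remodeller and CDCA7 its partner, MCM6 is a subunit of the helicase, PCNA is the sliding clamp, and UHRF1 reads half-methylated DNA behind the fork. In MDA-MB-231 cells, PCNA and HELLS rose with GFOGER, while MCM6, UHRF1 and CDCA7 did not pass the test there. Across the 31 members with a known promoter, 9 of the 15 with a match and 15 of the 16 without one were higher with GFOGER in MDA-MB-231 cells. The median log2 fold change was 0.43 with a match and 0.61 without. The CCAAT box, searched as CCAAT, was present in 22 members (71.0%), in 35.7% of all promoters and, at a share like that of the members, in 30 of the 44 G2/M promoters (68.2%). The CHR element of G2/M genes, searched as TTTGAA, was present in 2 members (6.45%), in 15.4% of all promoters and in 30 of 44 G2/M promoters (68.2%). Members were also richer in G and C, with a median of 65.0% against 58.3% for all promoters, and the part of base composition in the motif shares was not tested. A match is a run of letters and was not tested for binding.

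The summed level of the 40 genes gave a first view of the groups. In MDA-MB-231 cells it was 3943, 3953 and 3522 cpm with GFOGER and 2717 and 2681 cpm with IKVAV, a ratio of means of 1.41 without overlap of the groups. In T47D cells it was 5178, 4981 and 5354 cpm with GFOGER and 4127, 4457 and 5675 cpm with IKVAV, a ratio of 1.09 with overlap. IKVAV replicate 3 of T47D cells was the highest of all 11 libraries, and the ratio was 1.2 without it. The level was higher in T47D than in MDA-MB-231 cells under both peptides, by 1.36 times with GFOGER and 1.76 times with IKVAV. The median coefficient of variation over the 39 members other than CDCA7 was 8.71% with GFOGER and 4.58% with IKVAV in MDA-MB-231 cells. It was 5.6% in T47D cells with GFOGER and 15.7% with IKVAV, so the last group varied most. Within MDA-MB-231 GFOGER, replicate 3 was the lowest of the 3 libraries for 30 members and still above both IKVAV libraries for 28 of these. The shares of all genes with this order were not computed. All GFOGER libraries lay above all IKVAV libraries for 32.2% of the 14090 genes tested in these cells.

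**Figure D1:**
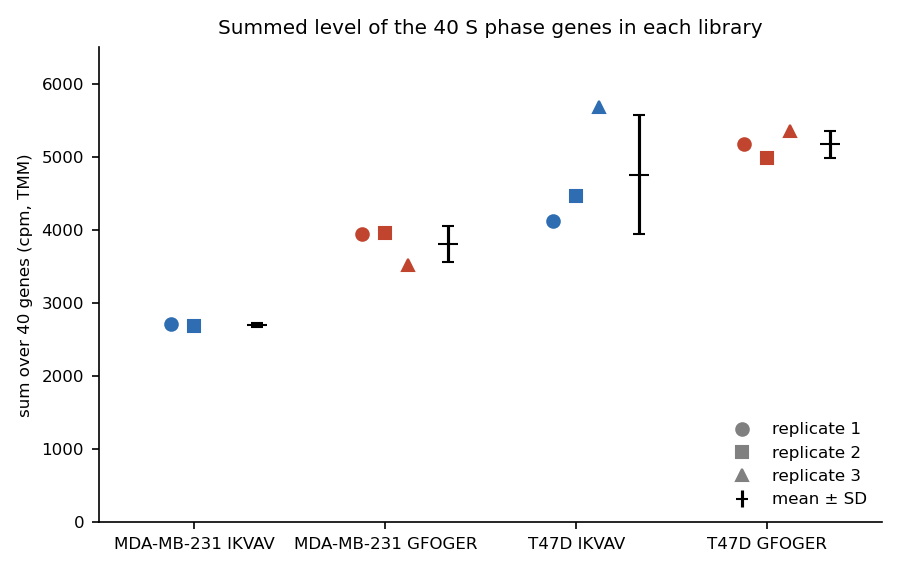
Sum of the TMM-normalized levels of the 40 genes (cpm, linear axis from 0) in each of the 11 libraries, by cell line and peptide, with the replicate number as the symbol and the mean ± SD beside the points. The MDA-MB-231 libraries with GFOGER lie between 3522 and 3953 cpm, above those with IKVAV at 2681 and 2717 cpm, while T47D IKVAV replicate 3, at 5675 cpm, lies above every T47D GFOGER library.

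The first comparison asked which of these genes respond to the collagen mimic relative to the laminin mimic in MDA-MB-231 cells. With GFOGER, 28 of the 40 genes were higher, 0 were lower and 12 did not pass an adjusted p of 0.05 (edgeR's quasi-likelihood test, Benjamini-Hochberg adjustment). Of all 14090 genes tested, 42.7% were called and 21.4% were called higher. The median log2 fold change was 0.47 for the members and 0.0039 for all genes. The changes were moderate, from 1.25-fold to 1.98-fold among the 28 genes, and 0 members passed the study's added threshold of 2-fold, which 9.57% of all genes passed. All libraries with GFOGER lay above all libraries with IKVAV for 36 members, and for 32.2% of all genes. Markers of the cell line moved with the peptide as well, since all 5 MDA-MB-231 markers were higher with GFOGER and their sum was 7290 to 7550 cpm against 4830 and 4900 cpm. The T47D markers summed to 194 to 233 cpm with GFOGER and 209 to 211 cpm with IKVAV in these cells, and 1 of the 5 was lower and 0 were higher. The part of these differences in the S phase result was not tested. With 1 IKVAV library left, which is then assumed to vary like the GFOGER libraries, fewer members were called. The median log2 fold change of the members was 0.48 without IKVAV replicate 2.

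Among the genes of origin licensing and the helicase, 6 of 8 were higher. GMNN, which encodes geminin, the inhibitor that keeps origins from being licensed again, was at 76.6, 77.8 and 61.8 cpm with GFOGER and 40.7 and 41.6 cpm with IKVAV. Its groups were well apart, with a log2 fold change of 0.80 (SE 0.121, edgeR, adjusted p = 7.1e-05). CDC6, the factor that loads the MCM helicase, was next at 0.77 (SE 0.102). CDC45 and GINS2, which join MCM in the active helicase, rose by 0.47 (SE 0.140) and 0.56 (SE 0.173) on the log2 scale. The MCM subunits differed in whether they passed the test, while the differences between them were not tested. MCM4 rose by 0.52 (SE 0.0888) and MCM5 by 0.37 (SE 0.109), while MCM2 at 0.21 (SE 0.105) and MCM6 did not pass the test. MCM6 was at 67.3, 72.2 and 62.4 cpm with GFOGER and 58.8 and 59.4 cpm with IKVAV. These values did not overlap, but the log2 fold change of 0.18 (SE 0.108, edgeR, adjusted p = 0.197) was the smallest of the group.

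At the fork, 5 of 8 genes were higher. The sliding clamp PCNA was at 120, 111 and 88.7 cpm with GFOGER and 75.9 and 62 cpm with IKVAV, a log2 fold change of 0.62 (SE 0.128, edgeR, adjusted p = 0.00109). The flap endonuclease FEN1, the clamp loader subunit RFC2, the primase subunit PRIM1 and the catalytic subunit of polymerase alpha, POLA1, rose by 0.49, 0.46, 0.61 and 0.37 on the log2 scale. PRIM1 and POLA1 work as 1 enzyme that makes primers, and both rose. RPA2, a subunit of the complex that coats single-stranded DNA, and DSCC1, of an alternative clamp loader, had values of 0.17 and 0.18 and did not pass. The polymerase delta subunit POLD3 had the smallest change of the group, with 63.1, 60.5 and 61.4 cpm with GFOGER and 52.9 and 57.4 cpm with IKVAV. The POLD3 libraries did not overlap, and its log2 fold change was 0.15 (SE 0.106, edgeR, adjusted p = 0.267).

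All 3 genes of nucleotide supply were higher, and this group had the highest median among the role groups, at 0.66. RRM2, the S phase subunit of ribonucleotide reductase, was at 270, 276 and 222 cpm with GFOGER and 132 and 124 cpm with IKVAV. This was the largest change of the 40 genes, 1.98-fold, or 0.99 on the log2 scale (SE 0.106, edgeR, adjusted p = 1.78e-06). Its partner RRM1 rose by 0.66 (SE 0.105). TYMS, thymidylate synthase, was at 86.1, 91.7 and 85.7 cpm with GFOGER and 49.8 and 60.6 cpm with IKVAV, again without overlap, and also rose by 0.66 (SE 0.113, edgeR, adjusted p = 0.000208). TYMS overlaps ENOSF1 by 3176 bases, and ENOSF1 had at most 713 counts against 541 to 1533 for TYMS. The strand option of the counting is not given in the sources used here.

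Of the genes for chromatin and histone supply, 5 of 7 were higher. CHAF1B, a subunit of the assembly factor that places histones behind the fork, was at 40.8, 44.7 and 45.7 cpm with GFOGER and 29.3 and 24.9 cpm with IKVAV. It had the largest change of the group, at 0.68 (SE 0.126, edgeR, adjusted p = 0.000408). The histone chaperone NASP, the histone mRNA binding protein SLBP, the remodeller HELLS and the bromodomain ATPase ATAD2 rose by 0.32, 0.33, 0.43 and 0.35. UHRF1 was at 59, 59.2 and 64.4 cpm with GFOGER and 57.5 and 59.1 cpm with IKVAV, with overlap and a log2 fold change of 0.053. CDCA7 was at 13.2, 14.7 and 11.8 cpm with GFOGER and 12.2 and 13.6 cpm with IKVAV, so that its libraries were interleaved. Its log2 fold change of 0.024 (SE 0.158, edgeR, adjusted p = 0.922) turned to -0.0074 with upper-quartile normalization.

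The group for repair and checkpoints at the fork had 8 of 9 genes higher. TIPIN, which protects paused forks, was at 20.2, 22 and 15.7 cpm with GFOGER and 9.65 and 10.1 cpm with IKVAV. Its groups did not overlap, and it rose by 0.95 (SE 0.169, edgeR, adjusted p = 0.000275). UNG, which removes uracil from DNA, rose by 0.82 (SE 0.111), and USP1, which removes ubiquitin from PCNA, by 0.67 (SE 0.109). The exonuclease EXO1 and claspin (CLSPN), which relays the checkpoint signal, both rose by 0.63, and RAD51AP1, a factor of homologous recombination, rose by 0.61. The helicase BRIP1 rose by 0.47 and DTL, the ubiquitin ligase receptor that clears replication factors in S phase, by 0.56. BLM, a further repair helicase, was at 25.7, 28.8 and 23.1 cpm with GFOGER and 22.1 and 20.4 cpm with IKVAV. BLM did not overlap but did not pass the test either, at 0.27 (SE 0.137, edgeR, adjusted p = 0.122). DTL shares 84 bases with INTS7, which had up to 1623 counts against 1372 to 3242 for DTL.

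Of the 5 regulators and other genes of the G1 to S transition, 1 was higher. CCNE2, the cyclin E2 that partners CDK2 at the entry to S phase, was at 39, 42 and 33.6 cpm with GFOGER and 26.8 and 25.4 cpm with IKVAV, and rose by 0.54 (SE 0.130, edgeR, adjusted p = 0.00328). CCNE2 shares 269 bases with INTS8, which had at most 1095 counts against 417 to 1693. The repressor E2F8 was at 35, 38.2 and 38.3 cpm with GFOGER and 35.3 and 39.6 cpm with IKVAV, with full overlap and a log2 fold change of -0.021 (SE 0.119). CASP8AP2, which takes part in histone gene transcription, was the member with the lowest value, -0.22 (SE 0.129, edgeR, adjusted p = 0.183). Its levels were 53.9, 54.3 and 40.6 cpm with GFOGER and 60.1 and 54.6 cpm with IKVAV, so GFOGER replicate 3 was well below the remaining libraries. WDR76 and UBR7 had values of 0.28 and 0.26 and adjusted p-values of 0.0705 and 0.0594 (edgeR, Benjamini-Hochberg), so neither was called. Both passed without GFOGER replicate 3, at 0.35 and 0.32, but this was their lowest GFOGER library, at 43.4 and 95.4 cpm. Fits without other libraries are not given for these 2 genes. UBR7 shares 59 bases with C14orf142, which had at most 515 counts against 1267 to 3745.

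**Figure D2:**
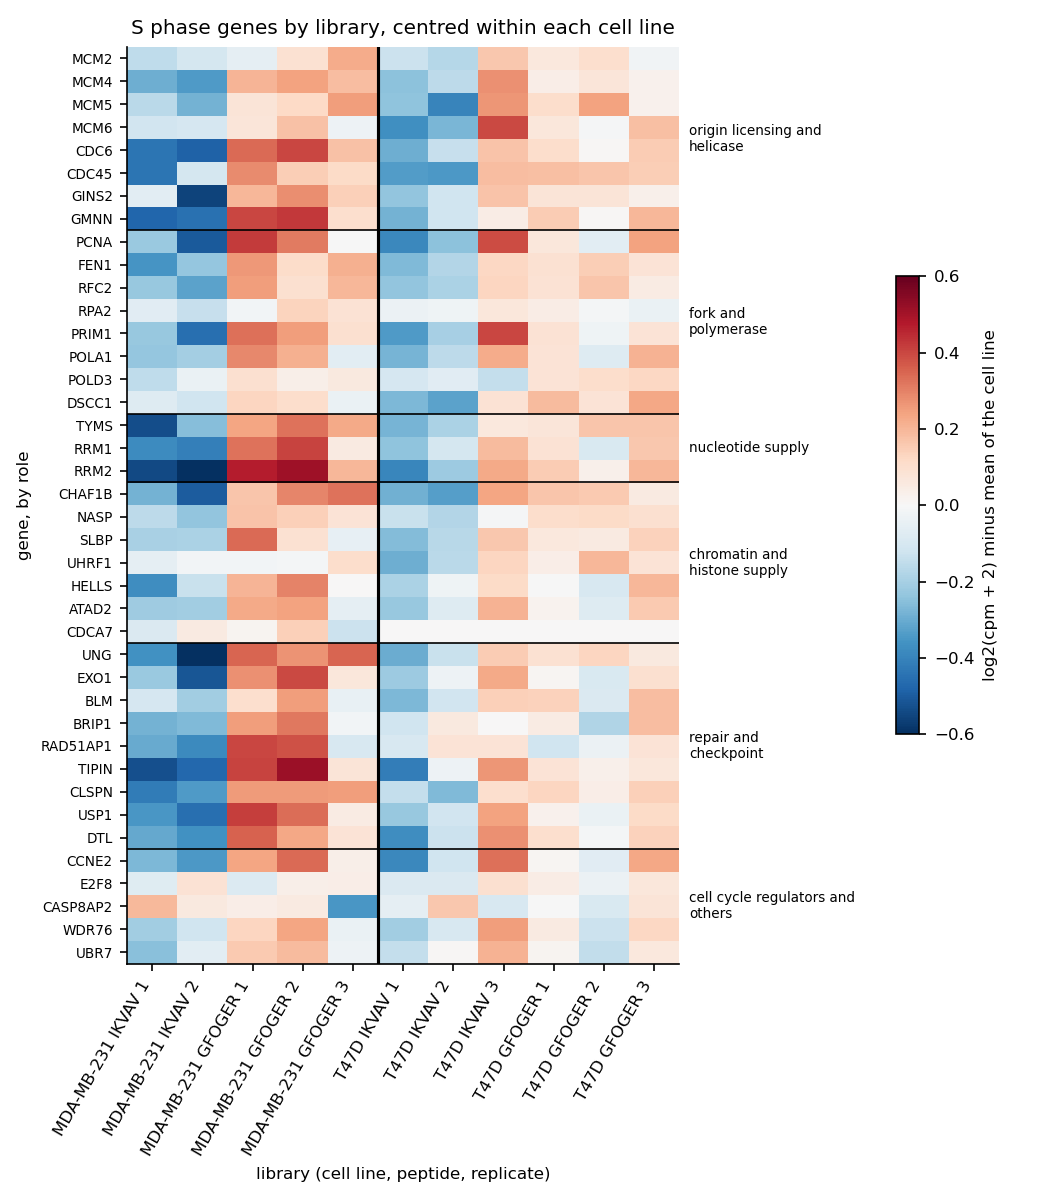
Level of each of the 40 genes in each library as log2(cpm + 2) minus the mean of that gene over the libraries of the same cell line (red higher, blue lower), with genes in rows by role and libraries in columns. In MDA-MB-231 cells the IKVAV columns are blue and the GFOGER columns red for most genes, while in T47D cells IKVAV replicates 1 and 2 are blue and IKVAV replicate 3 is red, and CDCA7 is flat in T47D cells because it had 0 counts.

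The same comparison in T47D cells gave 0 of 39 members past the threshold, in edgeR and in DESeq2, where edgeR called 0.11% of 13639 genes, 0.044% higher and 0.066% lower. CDCA7 was not tested, since it had 0 counts in all 6 libraries. At an unadjusted p below 0.05, 6 members had a higher level with GFOGER, namely CDC45, GMNN, POLD3, DSCC1, TYMS and NASP, where 11.2% of all genes had such a p and 5.25% were higher. The median log2 fold change was 0.11, and 34 of the 39 values were above 0, as were 49.7% of all values. All GFOGER libraries lay above all IKVAV libraries for POLD3, TYMS and NASP, 3 of the 39 members, and for 9.28% of all genes. With all 6 libraries, all 39 confidence intervals (95%) lay between -0.33 and 0.60 on the log2 scale. A change of 2-fold was therefore outside the interval of every tested member in this fit, though the spread it rests on may be technical. Without IKVAV replicate 3, described below, the median was 0.27 and the largest value 0.51. With all 6 libraries, the whole interval of 26 members lay below the MDA-MB-231 estimate, which has its own error, so this count is no test between the lines. That test, the interaction given below, called 11 of 40 members.

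IKVAV replicate 3 stood apart from the other T47D libraries, and whether its peptide label holds was not tested. It was above both other IKVAV libraries for 36 members and above every GFOGER library for 25. The shares of all genes with this order were not computed. Over all genes tested, it deviated from its group's other libraries by 0.254 on the log2 scale (root mean square). The values were 0.186 and 0.183 for IKVAV replicates 1 and 2. A further library with a larger value than its group was MDA-MB-231 GFOGER replicate 3, at 0.224 beside 0.153 and 0.168 for GFOGER replicates 1 and 2. RRM2 shows the order of the libraries, with 443, 407 and 457 cpm with GFOGER and 303, 341 and 465 cpm with IKVAV, where the last value is replicate 3. MCM6 was at 141, 133 and 153 cpm with GFOGER and 104, 111 and 177 cpm with IKVAV, and PCNA at 184, 168 and 208 cpm against 134, 148 and 232 cpm. In all 3 genes, replicate 3 was the highest of the 6 libraries and the other IKVAV libraries were the lowest.

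When IKVAV replicate 3 was left out, 18 of 39 members were higher with GFOGER in T47D cells and 0 were lower (edgeR, Benjamini-Hochberg adjusted p below 0.05). Of 13827 genes, 7.81% were called in this fit, 3.1% higher and 4.71% lower. The library was singled out by its high level of these same genes, and leaving it out raises their fold changes. These counts are therefore a description, beside 0 of 39 called with all libraries. The median log2 fold change was 0.27, and the GFOGER libraries lay above IKVAV replicates 1 and 2 for 30 members and 22.5% of all genes. The 18 genes were MCM5, MCM6, CDC6, CDC45 and GMNN of licensing, PCNA, FEN1, RFC2, PRIM1 and DSCC1 of the fork, TYMS and RRM2 of nucleotide supply, CHAF1B, SLBP and UHRF1 of chromatin, and UNG, CLSPN and DTL of repair. CDC45 had the largest value, with 44.3, 43.9 and 43.2 cpm with GFOGER and 30.3 and 30.1 cpm in IKVAV replicates 1 and 2. Its log2 fold change was 0.51 (SE 0.0988, edgeR, adjusted p = 0.00194), against 0.31 (SE 0.128, edgeR, adjusted p = 0.389) with IKVAV replicate 3, which held 44.4 cpm. DSCC1, MCM5, CHAF1B and RRM2 followed at 0.48, 0.43, 0.42 and 0.41. Of the 18 genes, 15 were also called in MDA-MB-231 cells, which is 83.3% of the T47D genes and 53.6% of the MDA-MB-231 genes, where 28 of all 40 members (70%) were called. MCM6, UHRF1 and DSCC1 were the remaining 3, with 0.38, 0.32 and 0.48 in T47D cells and 0.18, 0.053 and 0.18 in MDA-MB-231 cells.

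A technical value moved with these libraries. The RPKM values that the authors deposited beside the counts imply a library total that took 2 classes, a low one of 5191201 to 5774966 in 5 libraries and a high one of 19898878 to 22840524 in 6 libraries. In T47D cells the low class held all GFOGER libraries and IKVAV replicate 3, and the high class held IKVAV replicates 1 and 2, so the class and the summed S phase level sorted the T47D libraries alike. Without replicate 3, class and peptide cannot be told apart in T47D cells. A fit with the class as a term compares the GFOGER libraries with replicate 3 alone, so it is no separate check. In MDA-MB-231 cells, IKVAV replicate 1 was of the low class and replicate 2 of the high class, and their summed levels were 2717 and 2681 cpm. The class as a term there takes up IKVAV replicate 1 and so amounts to leaving it out.

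**Figure D3:**
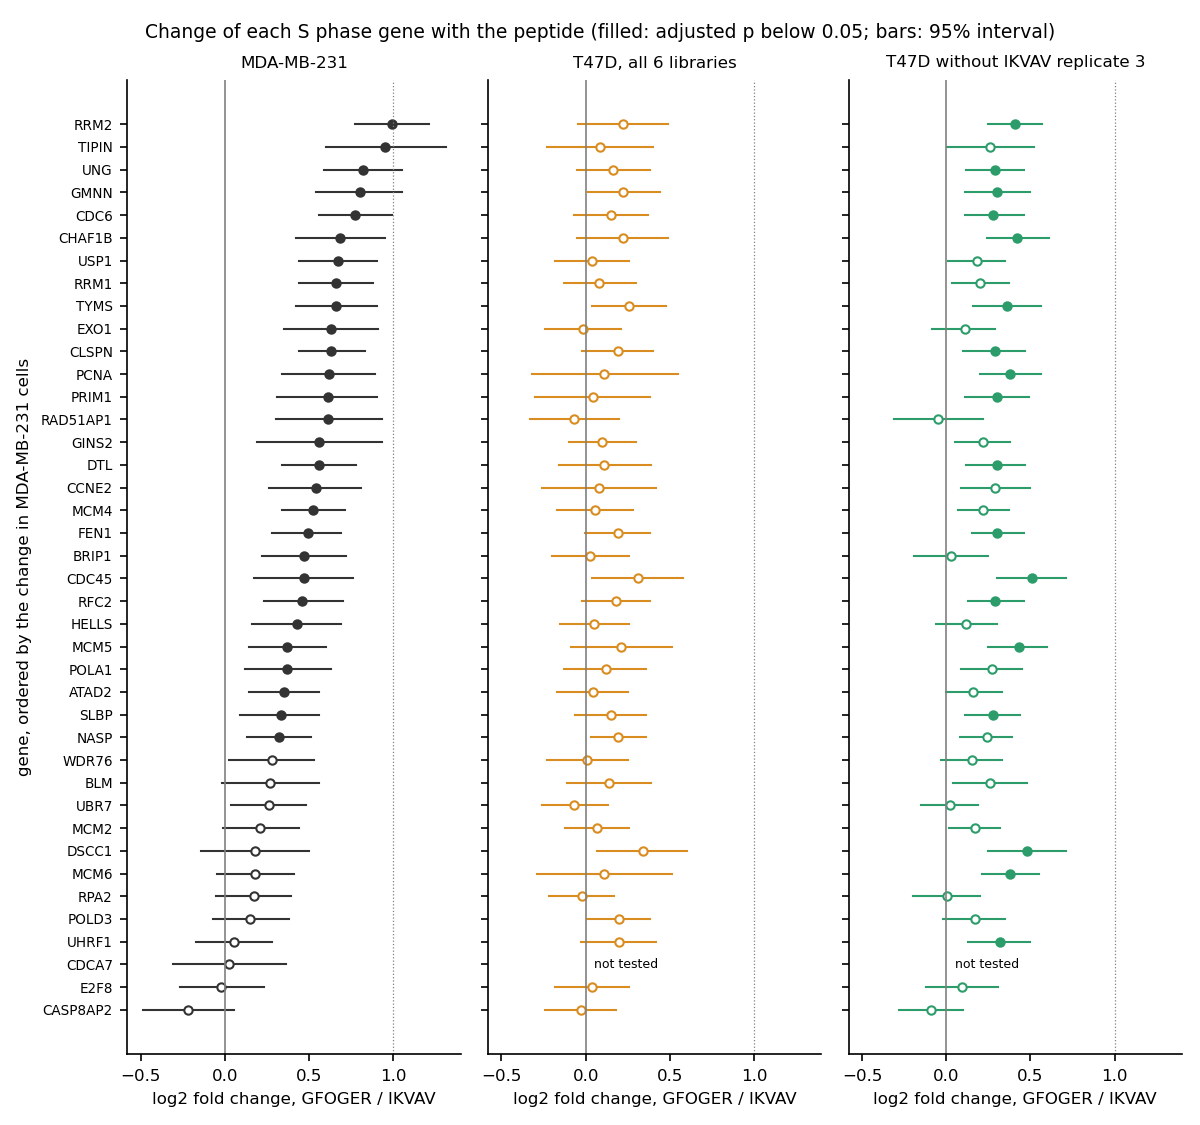
Log2 fold change of GFOGER over IKVAV for each member in MDA-MB-231 cells (left), for all 6 T47D libraries (middle) and in T47D cells without IKVAV replicate 3 (points, with 95% confidence intervals as bars, filled where the adjusted p was below 0.05). RRM2 is highest in MDA-MB-231 cells at 0.99 and CASP8AP2 lowest at -0.22, no point is filled in T47D cells with all libraries, and 18 are filled without replicate 3. CDCA7 was not tested in T47D cells.

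A fit of all 4 conditions asked whether the peptide difference was unlike in the cell lines, by the interaction term. The difference was larger in MDA-MB-231 cells for 11 of 40 members and smaller for 0, where 21% of 15310 genes were called, 10.8% in this direction and 10.1% in the other. The median interaction was 0.36 on the log2 scale for the members and 0.025 for all genes, and 0 members passed 2-fold, as 6.39% of all genes did. Repair and checkpoint genes made up 6 of the 11, namely UNG, EXO1, RAD51AP1, TIPIN, CLSPN and USP1. Nucleotide supply gave RRM1 and RRM2, and licensing gave MCM4, CDC6 and GMNN, while 0 of the 8 fork genes, 0 of the 7 chromatin genes and 0 of the 5 regulators passed. TIPIN had the largest interaction, 0.88 (SE 0.239, edgeR, adjusted p = 0.0128), with 24, 23 and 23.7 cpm with GFOGER and 16.4, 22 and 27.4 cpm with IKVAV in T47D cells. Its T47D IKVAV libraries spanned all the GFOGER values, which was not so in MDA-MB-231 cells. The count depended on single libraries, as RRM2 alone passed without MDA-MB-231 IKVAV replicate 2, where the remaining library is assumed to vary like the other groups, at least 8 passed without any other library, and 17 passed without T47D IKVAV replicate 1. It was 11 without T47D IKVAV replicate 3.

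Across the 39 members tested in both cell lines, the fold changes of the lines were weakly related, with a Pearson r of 0.19 and a Spearman rho of 0.20 across genes, which are not independent and share their libraries. Without T47D IKVAV replicate 3 these were 0.35 and 0.29. The mean level was higher with GFOGER in both cell lines for 33 members and for 27.6% of 12559 genes. The absolute log2 fold change was larger in MDA-MB-231 cells for 35 of the 39. How many of all genes share this order is not given here. Among all genes tested, the peptide comparison called 42.7% for MDA-MB-231 but 0.11% for T47D. The 35 of 39 is therefore not read as particular to the members.

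The cell lines were then compared with each other, averaged over the peptides. Of the 40 genes, 37 differed, 27 of them lower in MDA-MB-231 than in T47D cells and 10 higher (edgeR, Benjamini-Hochberg adjusted p below 0.05). Most genes differed between these lines, with 84.5% of 15310 genes called, 42% higher and 42.5% lower. The median difference, MDA-MB-231 minus T47D, was -0.73 on the log2 scale for the members and -0.015 for all genes. A difference of over 2-fold was found for 15 members, 13 lower and 2 higher, and for 46.3% of all genes. With the GFOGER libraries alone 36 members differed and with the IKVAV libraries alone 35, and 32 were called in both with the same direction, 23 lower and 9 higher. CDC6, GMNN and SLBP did not pass.

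Of the licensing genes, 6 of 8 were lower in MDA-MB-231 cells and 0 higher, and this was the only role group without a member called higher. GINS2, of the GINS complex, was at 16.8, 17.9 and 16.1 cpm with GFOGER and 13.7 and 9.13 cpm with IKVAV in MDA-MB-231 cells. The T47D libraries held GINS2 at 130, 130 and 126 cpm with GFOGER and 104, 113 and 138 cpm with IKVAV. The lines were far apart in every library, with a log2 difference of -3.14 (SE 0.1, edgeR, adjusted p = 5.75e-17), the lowest of the members. MCM4, MCM6, MCM2 and MCM5 differed by -1.41, -1.10, -1.10 and -0.75, and CDC45 by -0.61.

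At the fork, 6 of 8 genes were lower in MDA-MB-231 cells. PRIM1 had the lowest value at -1.53 (SE 0.114), followed by RFC2 at -1.07, PCNA at -1.05, POLA1 at -1.04, DSCC1 at -0.87 and FEN1 at -0.83. RPA2 went the other way, at 70.7, 78.6 and 75.9 cpm with GFOGER and 68.2 and 64.7 cpm with IKVAV in MDA-MB-231 cells. All 6 T47D libraries held RPA2 between 38.6 and 41.7 cpm, and the difference was 0.84 (SE 0.0654, edgeR, adjusted p = 1.87e-10). POLD3 was higher in MDA-MB-231 cells by 0.23.

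Within nucleotide supply the enzymes went in different directions. RRM2 was lower in MDA-MB-231 cells by a log2 difference of -1.14 (SE 0.0887) and RRM1 by -0.34 (SE 0.0773), whereas TYMS was higher by 0.65 (SE 0.0758, edgeR, adjusted p = 9.62e-08). For RRM1 the difference was -0.051 with the GFOGER libraries alone (edgeR, adjusted p = 0.651), and it passed with the IKVAV libraries alone. TYMS was at 49.8 to 91.7 cpm in MDA-MB-231 cells and 36.3 to 50.3 cpm in T47D cells, and only MDA-MB-231 IKVAV replicate 1 lay within the T47D range.

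Among the chromatin genes was CDCA7, the member with the largest difference between the lines. CDCA7 had 189 to 236 counts in each MDA-MB-231 library, with a mean of 13.1 cpm, and 0 counts in all 6 T47D libraries. With a floor of 3 counts per library, which is at most 0.201 cpm, its level was at least 65.1-fold higher in MDA-MB-231 cells, and the floor covers counting error only. Its remodelling partner HELLS was the other way round, at 56.7, 60.7 and 49.1 cpm with GFOGER and 37.5 and 44.5 cpm with IKVAV in MDA-MB-231 cells and 124 to 164 cpm in T47D cells. The log2 difference of HELLS was -1.57 (SE 0.0823, edgeR, adjusted p = 2.69e-13), the lowest of this group. ATAD2 at -0.85, CHAF1B at -0.82 and UHRF1 at -0.24 were lower in MDA-MB-231 cells too, and NASP was higher by 0.41.

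Repair and checkpoint genes were the most evenly divided, with 4 higher and 5 lower. CLSPN was at 168, 168 and 167 cpm with GFOGER and 104 and 110 cpm with IKVAV in MDA-MB-231 cells, and at 53.8 to 71.7 cpm in T47D cells. Every MDA-MB-231 library lay above every T47D library, with a difference of 1.05 (SE 0.0666, edgeR, adjusted p = 6.3e-12). RAD51AP1 at 0.96, USP1 at 0.61 and BRIP1 at 0.26 were also higher in MDA-MB-231 cells, and BRIP1 did not pass with the IKVAV libraries alone, at 0.030. BLM, EXO1, TIPIN, DTL and UNG were lower, between -0.79 and -0.58. TIPIN did not pass with the GFOGER libraries alone, at -0.27.

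Of the regulators, CCNE2 was lower in MDA-MB-231 cells by a log2 difference of -1.36 (SE 0.109), WDR76 by -1.16, UBR7 by -1.02 and CASP8AP2 by -0.29. E2F8 was higher by 0.35 (SE 0.0757). The summed level of the 40 genes was thus higher in T47D cells, while single members lay on either side.

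**Figure D4:**
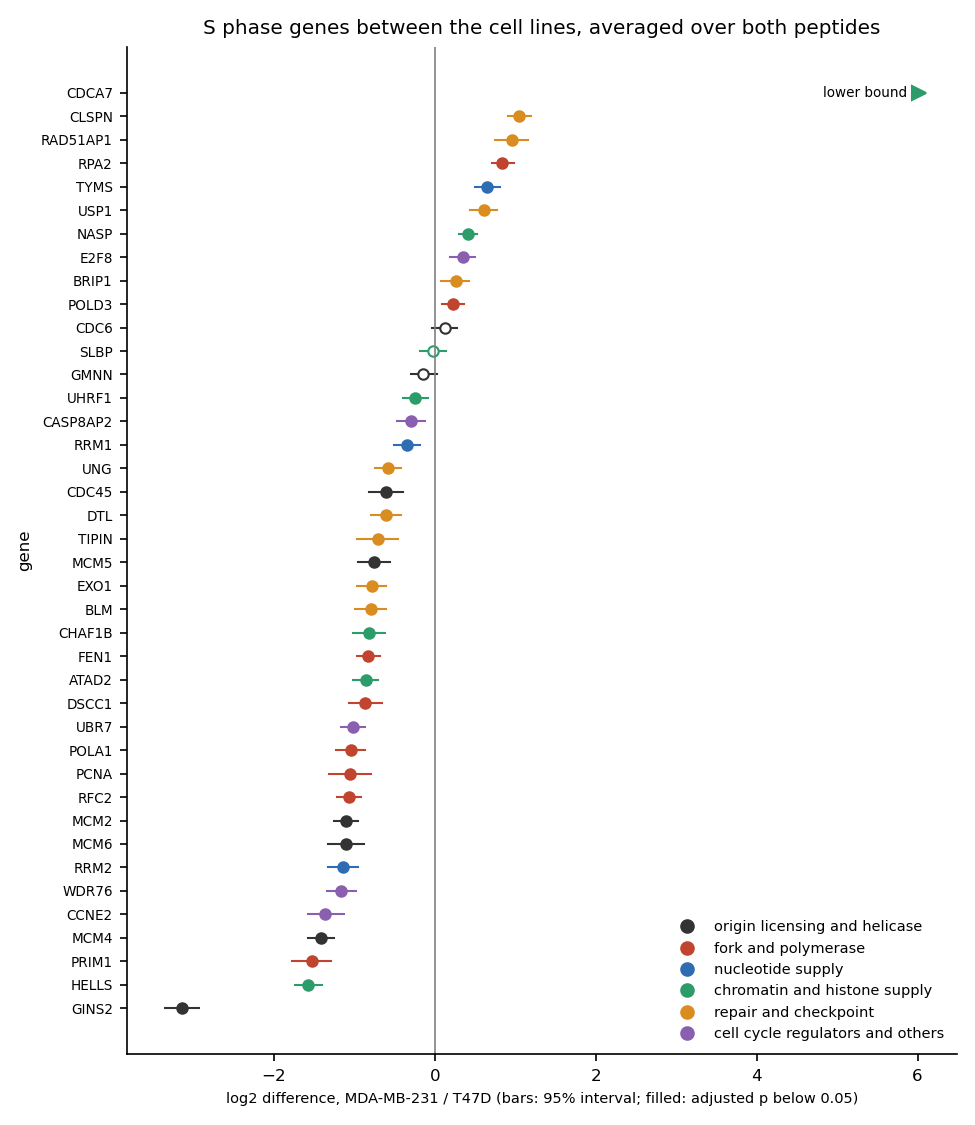
Log2 difference of MDA-MB-231 over T47D cells, averaged over both peptides, for each of the 40 genes in order of the difference (points coloured by role, with 95% confidence intervals as bars, filled where the adjusted p was below 0.05). Points left of 0 are higher in T47D cells, from GINS2 at -3.14, and CDCA7 is drawn as an arrow at its lower bound of 6.02.

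Levels of different genes were set side by side only after division by gene length. Per kb, the median member was at 17.2 cpm per kb in MDA-MB-231 cells and 31.2 cpm per kb in T47D cells, and 28 of the 40 genes had a higher mean level per kb in T47D cells. The most abundant members in MDA-MB-231 cells by the mean over the libraries of both peptides, 3 with GFOGER and 2 with IKVAV, were RRM1 at 75.1, PCNA at 63.4, SLBP at 63.4 and RRM2 at 59.7 cpm per kb. The order depends on the peptide, since RRM2 was at 74.6 cpm per kb with GFOGER and 37.3 cpm per kb with IKVAV. In T47D cells they were PCNA at 124, RRM2 at 117, MCM4 at 108 and GINS2 at 105 cpm per kb. CDCA7 at 4.66, BLM at 5.30 and DSCC1 at 6.08 cpm per kb were the least abundant in MDA-MB-231 cells. The least abundant in T47D cells after CDCA7 were BRIP1 at 6.25 and E2F8 at 7.45 cpm per kb. The order of the 40 genes was alike in the lines, with a Spearman rho of 0.741 across genes, given as a description.

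Further genes of replication that are not among the 40 were listed by function, and 89 of the 90 were tested in MDA-MB-231 cells. With GFOGER, 44 of the 89 were higher and 5 lower, against the 21.4% of all genes that were called in each direction. Their median log2 fold change was 0.29. In T47D cells 0 of 87 were called. Without IKVAV replicate 3, 17 of the 87 were higher and 1 lower, where 3.1% of all genes were higher and 4.71% lower. That library was high in these genes too, with a sum of 9385 cpm beside 7803 and 7792 cpm in IKVAV replicates 1 and 2. The counts without it are therefore a description. For each list, up to 3 of the genes with the largest absolute values in MDA-MB-231 cells are named.

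Of the other licensing and firing genes, 8 of 18 were higher and 0 lower, led by the GINS subunit GINS4 at 0.80, the fork factor WDHD1 at 0.64 and the origin recognition subunit ORC1 at 0.62. Of the other fork genes, 14 of 21 were higher and 0 lower, led by RNASEH2A, which removes RNA from DNA, at 1.02, and the polymerase epsilon subunits POLE2 at 0.86 and POLE4 at 0.80. RNASEH2A was the only one of these genes past 2-fold. In nucleotide supply, 6 of 9 were higher, among them the thymidylate kinase DTYMK at 0.83 and NME1 at 0.57. Of the chromatin assembly genes, 6 of 9 were higher and 1 lower, with HAT1 at 0.57 and the maintenance methyltransferase DNMT1 at 0.48, while RBBP4 at -0.47 was lower and SSRP1 was as large at 0.47.

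The G1/S regulators went in both directions, with 9 of 24 higher and 4 lower. E2F7, a repressor like E2F8, rose by 0.84 (SE 0.0902), CCND1, cyclin D1, by 0.77 (SE 0.0924), and E2F2 fell by 0.84 on the log2 scale (SE 0.150). Of 8 fork checkpoint genes, 1 was higher, namely the kinase CHEK1 at 0.41, while RAD9A at -0.33 and ATR at 0.25 did not pass. The genes of G2/M, which follow S phase, were compared as the nearest list. In MDA-MB-231 cells 44 of 54 were higher and 1 lower, with a median log2 fold change of 0.48 beside 0.47 for the S phase genes. In T47D cells 0 of 54 were called, and without IKVAV replicate 3 it was 2 of 54 beside 18 of 39 S phase genes, and that library had stood apart by its S phase level. The medians there were 0.14 and 0.27, and the difference between the lists was not tested.

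**Figure D5:**
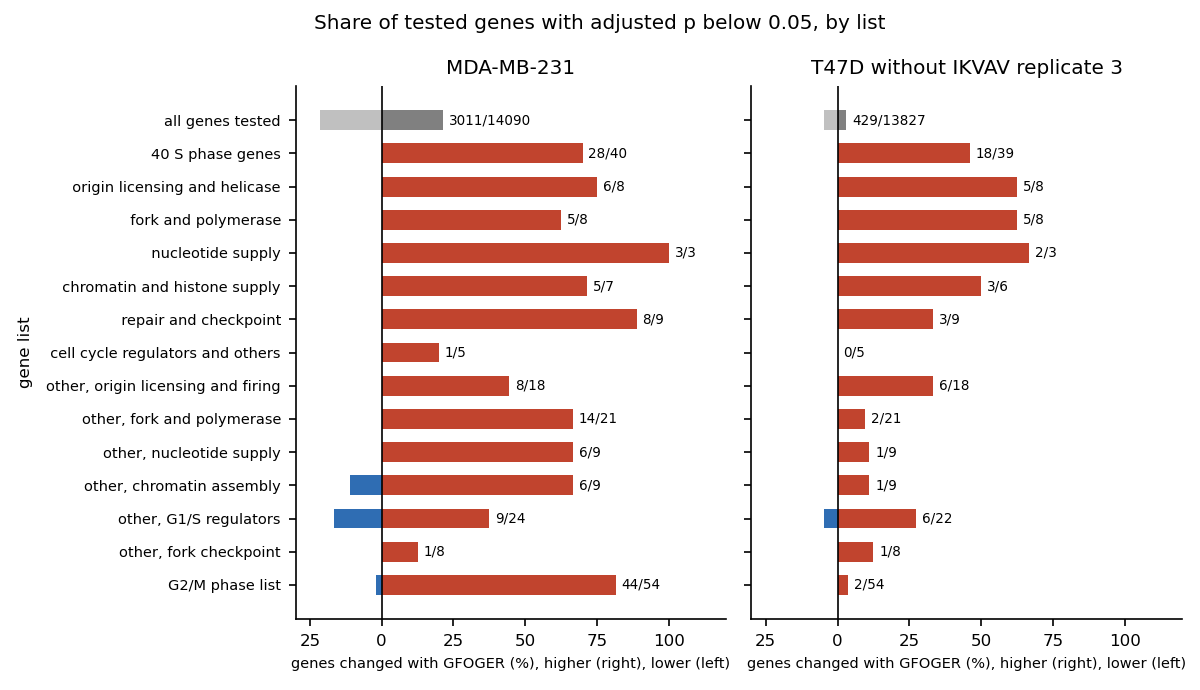
Share of tested genes in each list that were higher (right of 0) or lower (left of 0) with GFOGER at an adjusted p below 0.05, in percent, with the number higher and the number tested beside each bar, for MDA-MB-231 cells (left) and T47D cells without IKVAV replicate 3 (right). In MDA-MB-231 cells 28 of the 40 S phase genes and 44 of 54 G2/M genes are higher, against 3011 of 14090 genes, and in T47D cells 18 of 39 and 2 of 54, against 429 of 13827. With all 6 T47D libraries, which are not drawn, 0 of 39 and 0 of 54 were called. Replicate 3 was singled out by its level of the S phase genes, so the right panel is a description.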

How the data were processed

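For 11 libraries, the authors took reads to the hg19 genome with TopHat2 and to counts per gene with HTSeq. Per the submitters' processing notes, the tools included FastQC, Trim Galore 0.4.4, TopHat2 2.1.0, bedtools 2.17, SAMtools 1.4, HTSeq 0.6.1p1 and edgeR 3.16.5. Which annotation was counted, and on which strand, is not given in the sources used here. The deposited table holds raw counts per gene, which were used for all tests, RPKM values, which the authors scaled by gene length and a library total and which were used here only for the total they imply, and a length per gene, headed as coding length, that was used for levels per kb. Of 24656 rows, 1288 repeated a symbol and were left out.

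Counts were normalized by TMM, filtered with filterByExpr and tested with edgeR's quasi-likelihood F test (robust estimation) in R 4.3.3 with edgeR 4.0.16 and limma 3.58.1, with Benjamini-Hochberg adjustment over all genes tested. The peptides were compared in separate fits for the cell lines, and the cell lines and the interaction in a fit of all 4 conditions. A gene was called at an adjusted p below 0.05. The tests were tested on simulated data first. Levels are TMM-normalized cpm, and the heat map adds 2 to the cpm before the log2. Pairs of replicates varied 2.51 to 18.6 times as much as sampling alone would give. The members and all gene lists were chosen with earlier results of these data known, so their counts are descriptions. Values per library are given for the members with the largest and smallest absolute change of each role group in MDA-MB-231 cells, for CASP8AP2, which lay against the direction of most, and for further members marked by the comparison they show, chosen after their values were seen. Of the other replication lists, the 3 genes with the largest absolute change per list are named, except 1 that is not reported here. Alternatives were DESeq2 1.42.0, other normalizations and filters, a replicate block, the class of the RPKM total as a term, each peptide alone, 1 joint fit, the 2-fold threshold, each library left out and, chosen after the data were seen, edgeR without robust estimation.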

Additional observations from a re-analysis of the deposited data

Results flagged for a closer look

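The peptide difference of 11 members was unlike in the cell lines by the test of the interaction (edgeR's quasi-likelihood test, Benjamini-Hochberg adjusted p below 0.05, MDA-MB-231 minus T47D), and these are the results marked for a closer look. They are 27.5% of the 40 members, where 21% of 15310 genes were called, 10.8% in this direction. Of the 54 G2/M genes, 30 were called in this direction and 1 in the other, so the interaction is not read as particular to the members. The interaction on the log2 scale was 0.88 for TIPIN, 0.77 for RRM2, 0.69 for RAD51AP1, 0.66 for UNG, 0.65 for EXO1 and 0.64 for USP1. It was 0.63 for CDC6, 0.59 for RRM1, 0.58 for GMNN, 0.48 for MCM4 and 0.45 for CLSPN. The standard errors ran from 0.134 for CLSPN to 0.239 for TIPIN. RAD51AP1 and EXO1 had values just below 0 in T47D cells, -0.069 and -0.013, beside 0.61 and 0.63 in MDA-MB-231 cells. RAD51AP1 was at 46.7, 46.1 and 32.5 cpm with GFOGER and 27.9 and 26.3 cpm with IKVAV in MDA-MB-231 cells. The T47D libraries held RAD51AP1 at 15.9, 17 and 18.6 cpm with GFOGER and 16.2, 18.5 and 18.6 cpm with IKVAV, so the groups overlapped there. RRM2 alone passed the test without MDA-MB-231 IKVAV replicate 2.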

How the results depend on the processing

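In MDA-MB-231 cells 28 members were called under DESeq2, upper-quartile normalization, library size alone, at least 10 counts in every library and a joint fit of all conditions, and 29 without a filter. In T47D cells 0 were called under each of these and without a filter. The shares of all genes called under the alternatives, leave-out fits included, are not given here. Changes of the member counts are therefore not read as particular to the members. Without robust estimation the counts were 28, 0, 37 and 11 for the MDA-MB-231, T47D, cell line and interaction comparisons. With a fold change above 2 as well, 0 members were called in MDA-MB-231 cells, 15 between the cell lines and 0 in the interaction. With the class of the RPKM total as a term, which is estimated from the IKVAV libraries of both lines, the interaction was called for 20 members, and the cause was not tested. Leaving out single libraries, 15 to 32 members were called in MDA-MB-231 cells, 0 to 18 in T47D cells, 37 to 38 between the cell lines and 1 to 17 in the interaction, where fewer samples entered each fit. Libraries with the same replicate number were hardly related. Correlations of deviations from the group means were 0.0347 and 0.0114 in MDA-MB-231 cells and -0.0729, -0.131 and 0.0608 in T47D cells. Groups of 2 or 3 libraries cannot exclude a pairing, as the deviations of 2 libraries mirror each other. With the replicate number as a block 33, 0, 37 and 9 members were called in the 4 comparisons. The planned addition of the MDA-MB-231 IKVAV replicate that the submitters omitted was not run, as this library was not analysed here.

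Directions turned under these alternatives, with the cause not tested unless given. In MDA-MB-231 cells, CDCA7 was at -0.0074 with upper-quartile normalization, -0.056 with the class term and -0.055 to 0.11 when a library was left out, and E2F8 at -0.098 to 0.068 when a library was left out. In T47D cells the class term sets GFOGER against IKVAV replicate 3 alone, and there CDC45 was at -0.013 in place of 0.31 and the median of the members at -0.089 in place of 0.11. Between the cell lines, CDC6 was at -0.19 with the IKVAV libraries alone and GMNN at 0.15 with the GFOGER libraries alone. SLBP was at 0.0025 with at least 10 counts in every library, 0.07 with the class term, 0.072 with the GFOGER libraries alone and -0.069 to 0.043 when a library was left out. Of the values for single members in MDA-MB-231 cells, 512 kept direction and side of the threshold, 32 lost the call, 10 gained it and 6 turned direction.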
